A study of Mus musculus with 20 samples.

Results

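Heat shock proteins and their cochaperones were followed in mouse gastrocnemius, a calf muscle, with and without a muscle Bmal1 knockout treatment and with and without a bout of exercise. The genes were chosen by symbol: the Hspa, Hspb, Hsp90, Dnaja, Dnajb, Dnajc, Bag1 to Bag6 and Cct2 to Cct8 series, Hsph1, Hspd1 and Hspe1, together with Hsf1, Hsf2, Chordc1, Stip1, Ahsa1, Fkbp4 and Ptges3. The rule matched 94 symbols. Of these, 83 had 10 or more counts in 5 or more of the 20 libraries and are the members described here, out of 53311 rows in the count table. All 83 also passed the expression filter that left 13560 genes for testing. The other 11 (Hspb9, Cct6b, Cct8l1, Dnajb3, Dnajb7, Dnajb8, Dnajb13, Dnajc5b, Dnajc5g, Dnajc6 and Dnajc22) never exceeded 7 counts in a library.

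Heat shock proteins are chaperones: they hold unfolded proteins, fold them with energy from ATP, or pass them on for degradation. Hsp70 proteins bind and release clients in a cycle that J-domain proteins (the Dnaj genes) start and that nucleotide exchange factors (the Hsp110 and Bag proteins) reset, and Stip1 hands clients on to Hsp90. Heat shock factor 1, encoded by Hsf1, is held inactive by chaperones; when damaged proteins draw these away, it forms trimers that bind heat shock elements, inverted repeats of the letters GAA, in the promoters of chaperone genes. Contracting muscle is a known setting of this response, since it warms, burns fuel and strains its filaments.

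All 4 groups carried Cre and floxed Bmal1 (Cre+:iMSBmal1 fl/fl), so the controls carried the alleles too. They were given vehicle or the treatment named iMSBmal1KO, and muscle was taken at zeitgeber time 13 (hours after lights on) at rest, or 1 h after 30 min of treadmill running. The groups of 5 libraries each are called the resting and the exercised vehicle group and the resting and the exercised knockout group. Libraries are named by group and replicate number. The labels do not name the promoter that drives Cre. For the exercised knockout group, 1 label field mentions training, but titles and treatment fields both give acute exercise. Nothing in the labels says that libraries of a group came from separate animals, so p-values measure the spread between these libraries, which may be technical.

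Total counts ran from 8045154 to 11269812 per library. The targeted gene was not lower where it was labelled as deleted: Arntl, which encodes BMAL1, stood between 9.74 and 14.9 CPM (counts scaled to library size, with edgeR's TMM factors) in vehicle at rest and between 12.1 and 16.4 CPM in the libraries labelled knockout at rest. After exercise it stood between 7.90 and 21.4 CPM in vehicle and between 11.5 and 21.2 CPM in the libraries labelled knockout, so every genotype direction below rests on the labels. The counts are per gene and can include reads from outside the deleted part. The 6 general muscle fibre markers summed to 68039 to 104544 CPM per library. The libraries differed in slow fibres within each group: the summed level of 7 slow-fibre markers ran from 35.5 to 3539 CPM over the 20 libraries, and Myh7, the slow myosin, was at 0 in vehicle exercise 2. In such tissue, fewer cells of a type and less RNA per cell cannot be told apart.

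Promoter stretches of 7 members are shown first, since heat shock elements are the sites through which HSF1 acts; they were picked among called members that hold a match, so they do not stand for the members as a whole. RefSeq promoter windows of build GRCm38.p6, from 250 bases before to 50 after each annotated start, were found for 68 of the 83 members; the capitals mark every match to GAANNTTC or TTCNNGAA, each of which is its own reverse complement, so both strands are covered. Hspa1a and Hspa1b, the inducible Hsp70 pair, are given by the 250 bases before their starts (Hspa1a chr17:34972157-34972406, Hspa1b chr17:34959239-34959488, both on the minus strand), because they show how alike the pair is:
Hspa1a: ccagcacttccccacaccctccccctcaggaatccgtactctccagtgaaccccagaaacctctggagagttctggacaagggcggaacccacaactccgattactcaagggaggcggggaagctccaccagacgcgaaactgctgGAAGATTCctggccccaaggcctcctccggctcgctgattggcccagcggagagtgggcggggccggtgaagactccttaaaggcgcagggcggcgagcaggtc
Hspa1b: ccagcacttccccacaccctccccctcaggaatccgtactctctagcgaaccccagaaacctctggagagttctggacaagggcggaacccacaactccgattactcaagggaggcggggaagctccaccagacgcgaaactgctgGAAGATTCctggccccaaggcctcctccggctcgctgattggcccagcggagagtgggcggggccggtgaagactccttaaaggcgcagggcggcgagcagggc
These stretches differed at 3 of 250 positions, and each held 1 match beginning 104 bases before the start.

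The remaining stretches hold 30 bases around the largest cluster of matches in the window that the table lists first for each gene. They are Dnaja1 (chr4:40722333-40722362, plus strand, before the start), Hsph1 (chr5:149636287-149636316, minus strand, after the start), Chordc1 (chr9:18292260-18292289, plus strand, across the start), Hspe1 (chr1:55088053-55088082, plus strand, before the start) and Dnajb6 (chr5:29735844-29735873, plus strand, before the start), chosen as members called in the tests below with a match to show:
Dnaja1: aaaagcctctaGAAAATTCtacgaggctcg
Hsph1: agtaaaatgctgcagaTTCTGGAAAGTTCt
Chordc1: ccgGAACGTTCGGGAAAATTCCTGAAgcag
Hspe1: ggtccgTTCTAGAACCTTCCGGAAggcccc
Dnajb6: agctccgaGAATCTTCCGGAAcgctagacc
Chordc1 held 5 overlapping or neighbouring matches in its window, of which 4 are shown. Hsph1 held 3, of which 2 are shown, Hspe1 held 3 and Dnajb6 held 2. At least 1 match was found in 21 of 68 members (30.9%), where 17% of the 27025 genes with a window had one. The stricter run of 3 units (GAANNTTCNNGAA or TTCNNGAANNTTC, both of which contain matches to the shorter form) was present in 5 members, Chordc1, Dnajb6, Hspd1, Hspe1 and Hsph1 (7.35%), against 0.662% of all genes. Hspd1 and Hspe1 lie head to head, and windows of theirs on opposite strands overlap by 285 bases, so they share the same matches. CACGTG, the E-box bound by BMAL1 and its partner, was present in 7 members (10.3%) against 8.09% of all genes. A match describes letters in a window and is not evidence of binding.

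Levels differed widely between members. By mean CPM per kilobase of coding transcript over all libraries, Hspa8, the constitutive cytosolic Hsp70, stood at 480.2, Hsp90ab1, the constitutive cytosolic Hsp90, at 465, and the small heat shock protein Hspb6 (Hsp20) at 411. Next came Hspb8 at 236 and Hspb1 (Hsp25, the mouse counterpart of human HSP27) at 159. At the other end stood Bag4 at 1.18 and Hspa4l, an Hsp110 relative, at 1.25. The inducible Hspa1a and Hspa1b averaged 11.6 and 13.1 per kilobase. Small heat shock proteins, which hold filament proteins and need no ATP, supplied 3 of the 5 highest levels per kilobase. The 83 members together took 7647 ± 136 CPM at rest and 8877 ± 917 after exercise in vehicle, and 8381 ± 650 and 8909 ± 444 in knockout (SD, n = 5 each).

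In vehicle muscle, 8 of the 83 members rose after exercise: Hspa1b, Hspa1a, Hsp90aa1, Dnaja1, Hsph1, Dnajb2, Stip1 and Chordc1. They are the inducible Hsp70 pair, the inducible Hsp90, an Hsp110, a pair of J-domain proteins and a pair of Hsp90 cochaperones. No member fell, where 0.199% of all genes did. A gene was called at an adjusted p under 0.05 in edgeR's quasi-likelihood test over all 13560 genes, where 0.804% were called in either direction and 0.605% were called higher; the members' share was 9.64%. The median log2 fold change of the 83 members was 0.084, against 2.6e-05 for all genes, and 60 members had a value above 0 (72.3%, against 50% of all genes). An unadjusted p under 0.05 was found for 24 members (28.9%, against 8.92%), all higher. Levels did not overlap between the groups, exercise above rest, for 11 members (13.3%) against 1.18% of all genes. The 75 members that were not called had log2 fold changes from -0.14 to 1.20, with a median of 0.063.

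**Figure D1:**
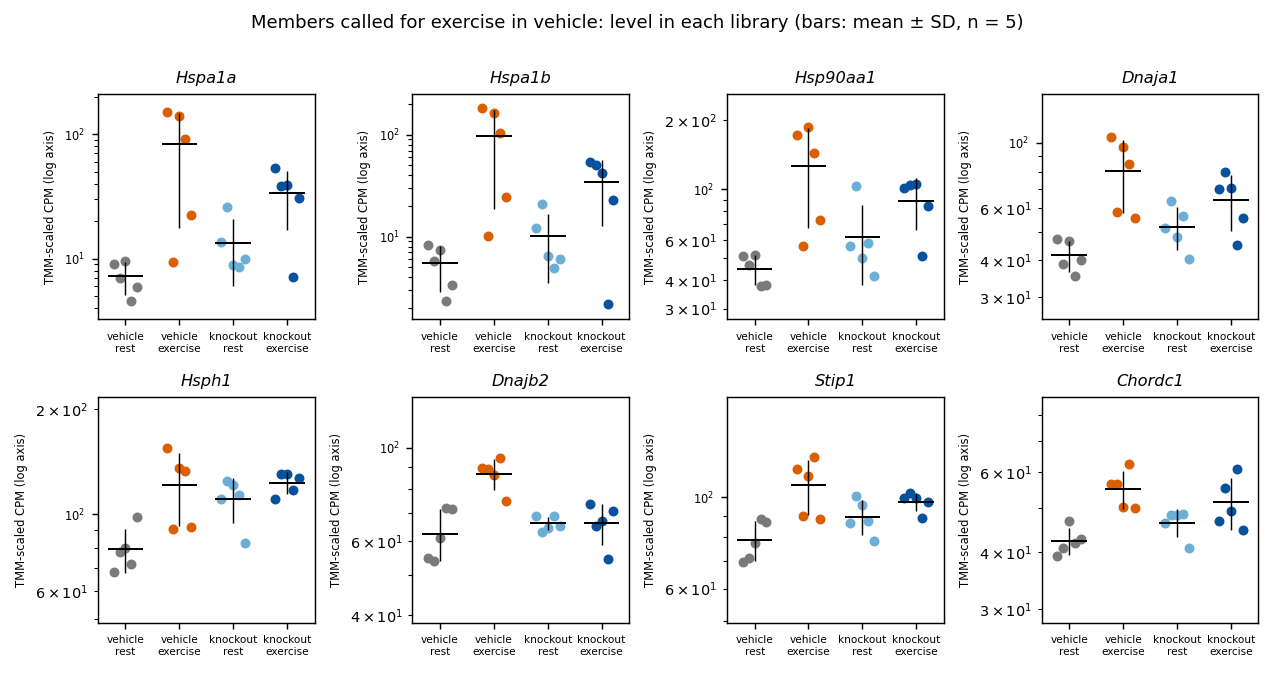
TMM-scaled CPM (log axis) of the 8 members called for exercise in vehicle, 1 point per library in the 4 groups, with the group mean and SD (n = 5). Vehicle exercise 1, 3 and 4 stand above every vehicle library at rest for all 8 genes, while vehicle exercise 2 lies inside the resting range for Hspa1a, at 9.33 CPM.

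The number of calls depended on single libraries. It was 1 without vehicle rest 1, 1 without vehicle rest 2, 4 without vehicle rest 3, 3 without vehicle rest 4, 3 without vehicle rest 5, 3 without vehicle exercise 1, 2 without vehicle exercise 3 and 1 without vehicle exercise 4. It was 8 without vehicle exercise 2 and 9 without vehicle exercise 5, the pair with the lowest Hspa1a and Hspa1b levels among the exercised vehicle libraries. When only both vehicle groups were fitted 1 member was called, Dnaja1, while DESeq2 called 11. The shares of all genes called in these fits are not given here, so the counts do not show a dependence particular to the members. Without 1 library, the log2 fold change of Hspa1b ran from 3.78 to 4.43.

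Among the Hsp70 genes, Hspa1a and Hspa1b had the largest changes of any member. Hspa1a, in vehicle at rest, stood at 9.05, 6.99, 9.56, 4.55 and 5.88 CPM in libraries 1 to 5, and after exercise at 152, 9.33, 139.7, 92.2 and 22.4 CPM. Libraries 1, 3 and 4 after exercise were far above rest, library 5 was moderately above, and library 2 lay inside the resting range. Hspa1b stood at 8.35, 5.82, 7.48, 2.34 and 3.33 CPM at rest and at 181, 10.2, 164, 104 and 24.5 CPM after exercise. All 5 exercised libraries were above all 5 resting ones for Hspa1b, in the same order as for Hspa1a. The log2 fold change was 3.52 for Hspa1a (SE 0.69, 95% interval 2.17 to 4.88, edgeR adjusted p 0.0229) and 4.14 for Hspa1b (SE 0.84, 95% interval 2.49 to 5.79, adjusted p 0.0289). All 95% intervals given here are normal approximations from the SE and can be narrower than the F test implies. The pair share 58.8% of Hspa1a's and 62.3% of Hspa1b's 50-base stretches, so reads can be split between them. Summed into 1 feature, they rose by 3.83 on the log2 scale (SE 0.76, edgeR adjusted p 0.0249), from 6.89 to 17.4 CPM at rest to 19.6 to 333 CPM after exercise. Leaving out 1 library ended the call of Hspa1a in 6 of 10 fits (adjusted p up to 0.0760) and that of Hspa1b in 8 of 10 (up to 0.0954), in both cases highest without vehicle rest 5.

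The other Hsp70 genes were not called. Hspa8 stood at 825, 868, 931, 943 and 929 CPM at rest and at 1132, 1017, 1204, 1379 and 1008 CPM after exercise, with no overlap between the groups. Its log2 fold change was 0.35 (SE 0.10, edgeR adjusted p 0.129; DESeq2 adjusted p 0.0198). Transcripts of Hspa8 share 68.8% of their 50-base stretches with other genes, most of them with the gene model Gm15459. Hspa13, a small Hsp70 relative of the endoplasmic reticulum, also did not overlap (7.44 to 9.41 CPM at rest, 10.1 to 12.4 CPM after exercise; log2 fold change 0.40, adjusted p 0.255). The endoplasmic reticulum Hsp70 Hspa5 (BiP) had a log2 fold change of 0.24 (adjusted p 0.509) and the mitochondrial Hsp70 Hspa9 of 0.08 (adjusted p 0.948). The remaining Hsp70 genes, Hspa1l, Hspa2, Hspa12a, Hspa12b and Hspa14, had values from -0.089 (Hspa12a) to 0.066 (Hspa2).

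All 3 Hsp110 genes, whose products release ADP from Hsp70, had an unadjusted p under 0.05, where 8.92% of all genes did. Hsph1 rose from 68.4, 78.1, 79.7, 71.7 and 97.9 CPM to 155, 90.9, 136, 133 and 91.6 CPM, a log2 fold change of 0.61 (SE 0.14, edgeR adjusted p 0.0326). Libraries 1, 3 and 4 after exercise were above all resting ones, and libraries 2 and 5 lay below vehicle rest 5. Hspa4l, the scarcest of the 3, stood at 7.31, 6.18, 6.87, 3.08 and 3.55 CPM at rest and 18.2, 6.26, 19.3, 10.7 and 7.78 CPM after exercise, again highest in exercised libraries 1, 3 and 4. Its log2 fold change of 1.20 (SE 0.32, edgeR adjusted p 0.0960) was not called, although DESeq2 gave an adjusted p of 0.0120. Hspa4 stood at 84.7 to 102 CPM at rest and 105 to 128 CPM after exercise, without overlap (log2 fold change 0.31, edgeR adjusted p 0.113, DESeq2 adjusted p 0.0206). The call of Hsph1 was lost in 7 of 10 fits that left out 1 library, with an adjusted p up to 0.117 without vehicle rest 1.

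Hsp90aa1, the inducible cytosolic Hsp90, stood at 50.7, 46.7, 51.5, 37.6 and 37.9 CPM in vehicle at rest and at 173, 56.6, 187, 143 and 73.0 CPM after exercise. Every exercised library was above every resting one, and libraries 1, 3 and 4 were again the highest. The log2 fold change was 1.50 (SE 0.32, edgeR adjusted p 0.0336), and 8 of the 10 leave-one-out fits did not call it (adjusted p at most 0.107, on omitting vehicle rest 5). Its constitutive partner Hsp90ab1 stood at 1067 ± 153 CPM at rest and 1210.5 ± 99.2 CPM after exercise (log2 fold change 0.18, adjusted p 0.648), and the endoplasmic reticulum form Hsp90b1 (Grp94) at 54.1 ± 4.54 and 60.0 ± 8.93 CPM (log2 fold change 0.15, adjusted p 0.810). Transcripts of Hsp90aa1 share 50.1% of their 50-base stretches with other genes, mostly with the gene model Gm12346.

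Of the 5 Hsp90 cochaperones, Stip1 and Chordc1 rose. Stip1, the adaptor that holds Hsp70 and Hsp90 together, went from 69.5, 71.0, 77.5, 88.7 and 87.2 CPM to 118, 90.4, 113, 126 and 88.7 CPM, with exercised library 5 just below the highest resting one (log2 fold change 0.44, SE 0.10, edgeR adjusted p 0.0385). Chordc1, a CHORD-domain partner of Hsp90, went from 39.3, 40.8, 46.8, 41.8 and 42.9 CPM to 56.3, 56.3, 50.2, 62.6 and 49.9 CPM, without overlap (log2 fold change 0.38, SE 0.091, edgeR adjusted p 0.0454). The other cochaperones were not called: Ahsa1, which speeds the Hsp90 ATPase, had a log2 fold change of 0.28 (adjusted p 0.214), Ptges3 (p23) of 0.29 (adjusted p 0.386) and Fkbp4, an immunophilin of steroid receptor complexes, of 0.16 (adjusted p 0.639). The calls of Stip1 and Chordc1 were lost in 7 and 8 of 10 fits without 1 library, with adjusted p up to 0.144 and 0.165, both without vehicle exercise 4. The factors themselves had small values: -0.079 for Hsf1 (adjusted p 0.889) and 0.063 for Hsf2 (adjusted p 0.968).

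Among the 37 J-domain genes, Dnaja1 and Dnajb2 rose in exercised vehicle muscle. Dnaja1, a general Hsp70 partner of the cytosol, stood at 47.2, 38.9, 46.4, 35.3 and 40.2 CPM at rest and at 105, 58.4, 97.1, 85.0 and 55.7 CPM after exercise, without overlap. Its log2 fold change of 0.95 (SE 0.18, edgeR adjusted p 0.00968) stayed called in all 10 fits that left out 1 library and under all 9 other settings tried. Other genes share 27.1% of the 50-base stretches of Dnaja1. Dnajb2, which pairs a J domain with ubiquitin-binding motifs, stood at 54.6, 53.8, 60.9, 72.0 and 71.5 CPM at rest and at 89.7, 89.0, 86.3, 94.5 and 74.6 CPM after exercise. Exercised libraries 1 to 4 of Dnajb2 lay close together and library 5 was lower, so library 2 was not low for this gene. Its log2 fold change was 0.47 (SE 0.10, edgeR adjusted p 0.0151), and 3 of the 10 leave-one-out fits did not call it (adjusted p at most 0.0750, on omitting vehicle rest 2). Dnajb1, the J protein most often paired with inducible Hsp70, stood at 8.47, 5.64, 6.50, 4.43 and 5.33 CPM at rest and 19.1, 7.17, 14.5, 8.09 and 6.56 CPM after exercise, and was not called (log2 fold change 0.87, adjusted p 0.164). None of the 24 Dnajc genes was called by edgeR or DESeq2, and their median log2 fold change was -0.037. Of the 24, 1 had an unadjusted p under 0.05 (4.17%, against 8.92% of all genes). Dnajc17, at 3.56 ± 0.858 CPM at rest, had the smallest p among them (log2 fold change 0.49, edgeR adjusted p 0.407).

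**Figure D2:**
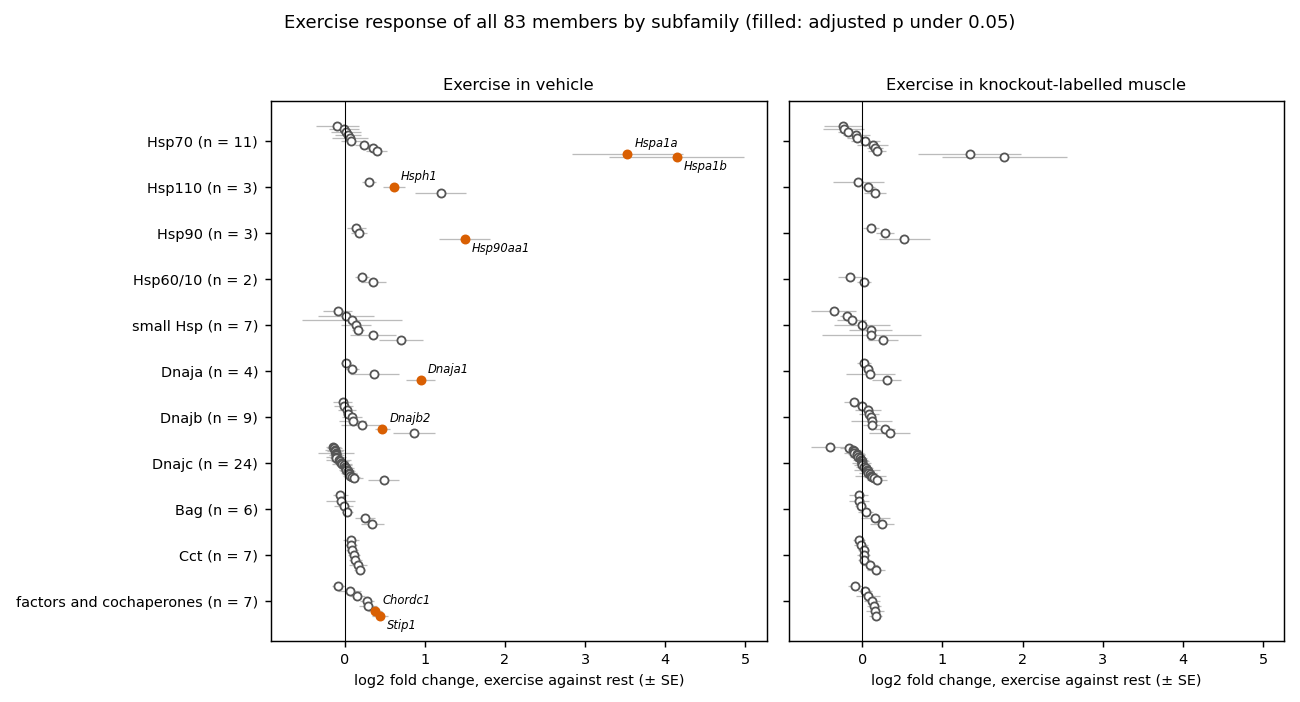
Log2 fold change of exercise against rest (point, with SE as a line) for each of the 83 members by subfamily, in vehicle (left) and knockout-labelled muscle (right); filled points have an adjusted p under 0.05. The 8 filled points are all in the left panel and range from 0.38 (Chordc1) to 4.14 (Hspa1b), and the 24 Dnajc points of that panel have a median of -0.037.

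For exercise in vehicle, neither edgeR nor DESeq2 called any small heat shock protein, Bag gene, Hsp60, Hsp10 or TRiC subunit from Cct2 to Cct8. TRiC is the ring that folds actin and tubulin. An unadjusted p under 0.05 was found for 2 small heat shock proteins (28.6%), 2 Bag genes (33.3%), both Hsp60 and Hsp10, and 1 TRiC subunit (14.3%). The share of all genes at that threshold was 8.92%. Hspb1 stood at 125, 123, 140.3, 121 and 122 CPM at rest and 255, 106, 269.8, 261 and 136 CPM after exercise. Its exercised libraries 1, 3 and 4 were close to each other and above all resting ones, and library 2 was below them all (log2 fold change 0.70, SE 0.27, edgeR adjusted p 0.384). Other genes share 50.1% of the 50-base stretches of Hspb1. Bag3, the partner of Hspb8 in removing damaged filament proteins, was also highest in exercised libraries 1, 3 and 4 and lowest in library 2, at 213, 122, 232, 177 and 139 CPM against 120.5 to 151 CPM at rest (log2 fold change 0.35, adjusted p 0.450). Hspd1 (Hsp60) had a log2 fold change of 0.22 (adjusted p 0.419) and its cap Hspe1 (Hsp10) of 0.36 (adjusted p 0.445). All 7 TRiC subunits from Cct2 to Cct8 had values above 0, where 50% of all genes did, with a median of 0.12. Tcp1, a TRiC subunit outside the naming rule, had 0.024 (edgeR adjusted p 0.980). Cct8 did not overlap, at 90.9 to 99.3 CPM at rest and 102 to 111 CPM after exercise (log2 fold change 0.19, edgeR adjusted p 0.375). By place, 0 of 8 members of the endoplasmic reticulum and 0 of 6 mitochondrial members were called by edgeR in this contrast. DESeq2 called none of them. Of each, 2 had an unadjusted p under 0.05 (25% and 33.3%, against 8.92% of all genes).

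Most of the 8 called members were high in the same libraries. Vehicle exercise 1, 3 and 4 were above all vehicle libraries at rest for 8 of 8 genes, and vehicle exercise 2 and 5 for 6 of 8. Among the exercised knockout libraries, number 1 was above all vehicle libraries at rest for 8 genes, numbers 2 and 3 for 7, number 5 for 6 and number 4 for 3. The resting knockout libraries 1 to 5 were above all vehicle libraries at rest for 5, 7, 4, 4 and 1 of the 8 genes. The 8 were called by comparing both vehicle groups, so the counts of exercised vehicle libraries follow in part from that choice. All these counts use the same vehicle libraries at rest, and the shares over all genes were not computed. Knockout rest 2 was the highest library of its group for 6 of the 8. The slow-fibre score, the mean log2 CPM of the 7 markers, was -0.416 in vehicle exercise 2 and 0.452 in knockout exercise 4, the libraries with the lowest Hspa1b of their groups, and 8.65 in knockout rest 2, which had the highest Hspa1b of its group. The score was also low in vehicle exercise 4 (2.69) and knockout exercise 2 (0.763), where Hspa1b stood at 104 and 50.8 CPM. With the score as a covariate, an alternative chosen after seeing the data, all 8 stayed called, with Hspa1b at 4.28 (edgeR adjusted p 0.00790). Hspa4l (edgeR adjusted p 0.00145), Bag3 (0.0112), Hspa4 (0.0267) and Dnajb1 (0.0332) were called too. The share of all genes called in that fit is not given here, so the added calls are not shown to be particular to the members. Summed nerve and Schwann cell markers (4 genes) ran from 16.7 to 126 CPM in vehicle after exercise, highest in libraries 4 and 3, against 33.3 to 42.7 CPM at rest; their part in the result was not tested. Neutrophil markers were at or near 0 in every library.

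**Figure D3:**
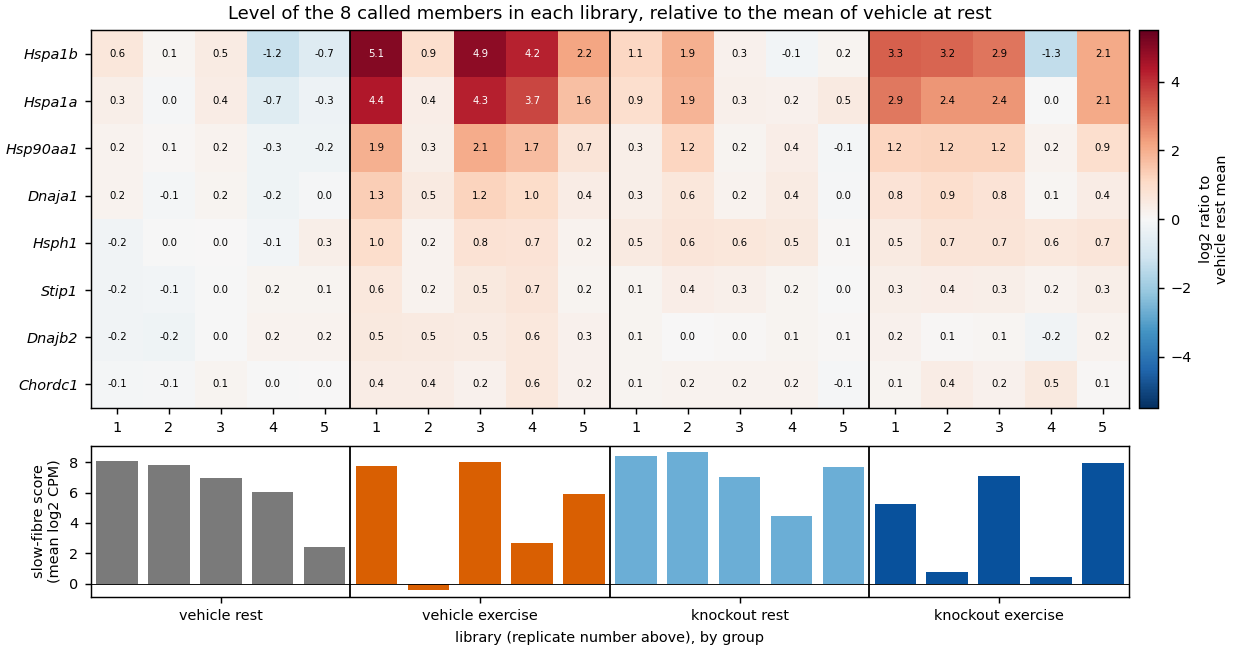
Top: log2 ratio of each library's CPM to the mean of vehicle at rest for the 8 called members (colour and printed value; columns are libraries 1 to 5 of each group). Bottom: slow-fibre score of the same libraries (mean log2 CPM of 7 markers), which runs from -0.416 in vehicle exercise 2 to 8.65 in knockout rest 2.

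In knockout-labelled muscle, no member was called for exercise. No gene of the 13560 was called by edgeR (0%), and 4 members (4.82%) had an unadjusted p under 0.05, against 4.71% of all genes; DESeq2 called no member either. The members' median log2 fold change was 0.041. The 4 with the smallest p were Hspb2 (-0.20), a small heat shock protein of muscle, Hsp90b1 (0.28), the endoplasmic reticulum J protein Dnajb9 (0.28) and Hspa1b (1.77), each with an adjusted p of 0.9995. Hspa1b stood at 12.1, 20.9, 6.53, 4.96 and 6.07 CPM in knockout libraries 1 to 5 at rest and at 53.8, 50.8, 41.8, 2.16 and 22.9 CPM after exercise. Of the exercised libraries, 4 were above all resting ones, and library 4 was the lowest of all 20. The 95% interval of this log2 fold change ran from 0.25 to 3.29.

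Hspa1a was likewise lowest in library 4, at 13.6, 26.2, 8.86, 8.52 and 10.01 CPM in knockout at rest and 53.2, 38.5, 39.3, 7.15 and 30.9 CPM after exercise (log2 fold change 1.34, SE 0.64). Hsp90aa1 stood at 56.6, 103, 50.1, 58.1 and 41.5 CPM and 101, 104, 105, 51.1 and 84.1 CPM, overlapping because knockout rest 2 was as high as the exercised libraries and knockout exercise 4 as low as the resting ones (log2 fold change 0.53, SE 0.31). Dnaja1 stood at 51.5, 63.3, 48.2, 56.7 and 40.3 CPM and 70.0, 79.5, 70.4, 45.1 and 55.5 CPM, with 3 exercised libraries above all resting ones (log2 fold change 0.30, SE 0.18). The remaining members of the 8 had log2 fold changes of 0.16 (Hsph1), 0.15 (Chordc1), 0.12 (Stip1) and 0.0023 (Dnajb2). Without knockout exercise 4, Hspa1b had a log2 fold change of 2.07 and was still not called, and without knockout rest 2 it had 2.22.

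The difference between both exercise responses, tested as the interaction of treatment and exercise, was called for no member and for no gene (0%) by edgeR or, among the members, by DESeq2. An unadjusted p under 0.05 was found for 12 members (14.5%), against 5.83% of all genes, and 11 of the 12 values were negative, that is, lower for exercise in knockout-labelled than in vehicle muscle. The 12 were Dnajb2, Hspb2, Hspa13, Hspa4l, Dnaja1, Hspe1, Hsph1, Hspa1a, Stip1, Hsp90aa1 and Hspa1b with negative values and Hsf1 with a positive one. Of the 11, Hspb2 (0.17 in vehicle, -0.20 in knockout), Hspa13 (0.40 and -0.17), Hspe1 (0.36 and -0.15) and Hspa4l (1.20 and -0.049) had log2 fold changes of opposite sign, and the other 7 had values above 0 in both. Dnajb2 had the smallest p, with a difference of -0.47 (SE 0.14, 95% interval -0.74 to -0.20, edgeR adjusted p 0.717). The differences of Hspa1b (-2.37, 95% interval -4.56 to -0.18, adjusted p 0.849) and of Hspa1a (-2.18, 95% interval -4.00 to -0.37, adjusted p 0.813) were larger and less precise. A call in vehicle beside none in knockout-labelled muscle therefore does not show that the responses differed.

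At rest, 2 members differed between knockout-labelled and vehicle muscle: Dnajb6 fell and Hspa4 rose. The share of 2.41% stood below the 3.86% of all genes called in this comparison (1.8% higher and 2.06% lower). Dnajb6, a J protein that keeps proteins from aggregating and whose human counterpart is mutated in a limb-girdle muscular dystrophy, stood at 78.2, 77.6, 79.6, 85.5 and 81.2 CPM with vehicle and 58.9, 68.0, 66.5, 60.3 and 59.6 CPM with knockout, without overlap. Its log2 fold change was -0.36 (SE 0.071, edgeR adjusted p 0.00284), and it stayed called in every alternative tried. Other genes share 26.6% of the 50-base stretches of Dnajb6. Hspa4 stood at 99.1, 97.8, 102, 86.1 and 84.7 CPM with vehicle and 113, 132, 125, 104 and 107 CPM with knockout, also without overlap (log2 fold change 0.31, SE 0.085, edgeR adjusted p 0.0428). That call was lost in 7 of 10 fits without 1 library, with an adjusted p up to 0.166 without knockout rest 2. Hspa4 also lost it with library size alone, without a filter on low counts and when only both resting groups were fitted (edgeR adjusted p up to 0.138). The count was 1 without vehicle rest 1, 2 or 4, or without knockout rest 2 or 3, and 4 by DESeq2. Shares of all genes called in these fits are not given here.

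Other members had resting values above 0 that did not pass. Hsph1 stood at 110.3, 124, 121, 114 and 82.8 CPM in knockout at rest, and 4 of the 5 libraries were above all vehicle libraries at rest (log2 fold change 0.48, edgeR adjusted p 0.0532, DESeq2 adjusted p 0.0291). Hspa13 had a log2 fold change of 0.45 (edgeR adjusted p 0.0680, DESeq2 adjusted p 0.0497) and Dnajc13, an endosomal J protein, of 0.34 (edgeR adjusted p 0.0972). In all, 58 of 83 members had a resting log2 fold change above 0 (69.9%, against 51.7% of all genes), with a median of 0.11. This contrast shares its vehicle libraries at rest with the exercise contrast in vehicle, so the values of Hsph1 (0.48 and 0.61) and Hspa4 (0.31 and 0.31) in both are not independent.

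After exercise, 6 members differed by the knockout label: Dnajc7 was higher, and Hspb2, Dnajb6, Dnajb2, Hspe1 and Fkbp4 were lower. The share of 7.23% stood near the 6.42% of all genes called in this comparison (2.67% higher and 3.75% lower). Of the called genes overall 41.6% were higher, or 53.1% when scaled by library size alone. Hspb2, a small heat shock protein that binds the kinase DMPK in muscle, stood at 54.1, 53.7, 47.5, 50.7 and 48.5 CPM with vehicle and 41.1, 37.9, 39.6, 31.3 and 40.2 CPM with knockout after exercise, without overlap (log2 fold change -0.42, SE 0.079, edgeR adjusted p 0.00146). At rest it stood at 43.4 to 47.0 CPM in vehicle and 40.0 to 47.5 CPM in knockout. Of the exonic bases of Hspb2, 30.2% overlap its neighbour Cryab on the opposite strand, and no source used here says whether counting was strand-aware. Dnajb6 was again lower, at 82.5, 86.4, 78.8, 89.2 and 78.2 CPM with vehicle and 67.7, 73.2, 62.5, 67.7 and 66.3 CPM with knockout (log2 fold change -0.30, SE 0.071, edgeR adjusted p 0.0107). These libraries are not those of the resting comparison.

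Dnajb2 stood at 89.7, 89.0, 86.3, 94.5 and 74.6 CPM with vehicle and 73.5, 65.3, 67.2, 54.4 and 70.8 CPM with knockout after exercise, without overlap (log2 fold change -0.39, SE 0.10, edgeR adjusted p 0.0142). Its levels at rest were 62.6 ± 8.80 CPM with vehicle and 66.2 ± 2.52 CPM with knockout, and the vehicle libraries after exercise, which this contrast shares with the exercise contrast in vehicle, were the high ones. Dnajc7, which binds both Hsp70 and Hsp90, stood at 72.5, 84.0, 66.3, 72.5 and 77.5 CPM with vehicle and 96.2, 99.9, 83.4, 107 and 86.6 CPM with knockout, with 4 knockout libraries above all vehicle ones (log2 fold change 0.34, SE 0.083, edgeR adjusted p 0.0128). Hspe1 stood at 55.6, 43.0, 64.7, 48.5 and 40.3 CPM and 32.9, 34.4, 39.0, 26.9 and 40.4 CPM, and overlapped only between vehicle exercise 5 and knockout exercise 5 (log2 fold change -0.54, SE 0.15, adjusted p 0.0358). Its partner Hspd1, which forms the chamber that Hspe1 closes, had a log2 fold change of -0.079 (adjusted p 0.684). Other genes share 44.8% of the 50-base stretches of Hspe1 and 42.1% of those of Hspd1. Fkbp4 stood at 137, 114, 129, 126 and 122 CPM and 109, 97.4, 115, 79.9 and 110.2 CPM (log2 fold change -0.29, SE 0.088, adjusted p 0.0489). Hspa4l, at 18.2, 6.26, 19.3, 10.7 and 7.78 CPM with vehicle and 6.60, 5.51, 6.46, 5.13 and 7.63 CPM with knockout, was not called by edgeR (log2 fold change -0.98, adjusted p 0.0648) but was by DESeq2 (adjusted p 0.0230) and with the slow-fibre covariate (edgeR adjusted p 0.0120). Calls of Hspe1 and Fkbp4 were lost in 6 and 7 of 10 fits without 1 library, with adjusted p up to 0.0978 and 0.120, both without knockout exercise 4.

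**Figure D4:**
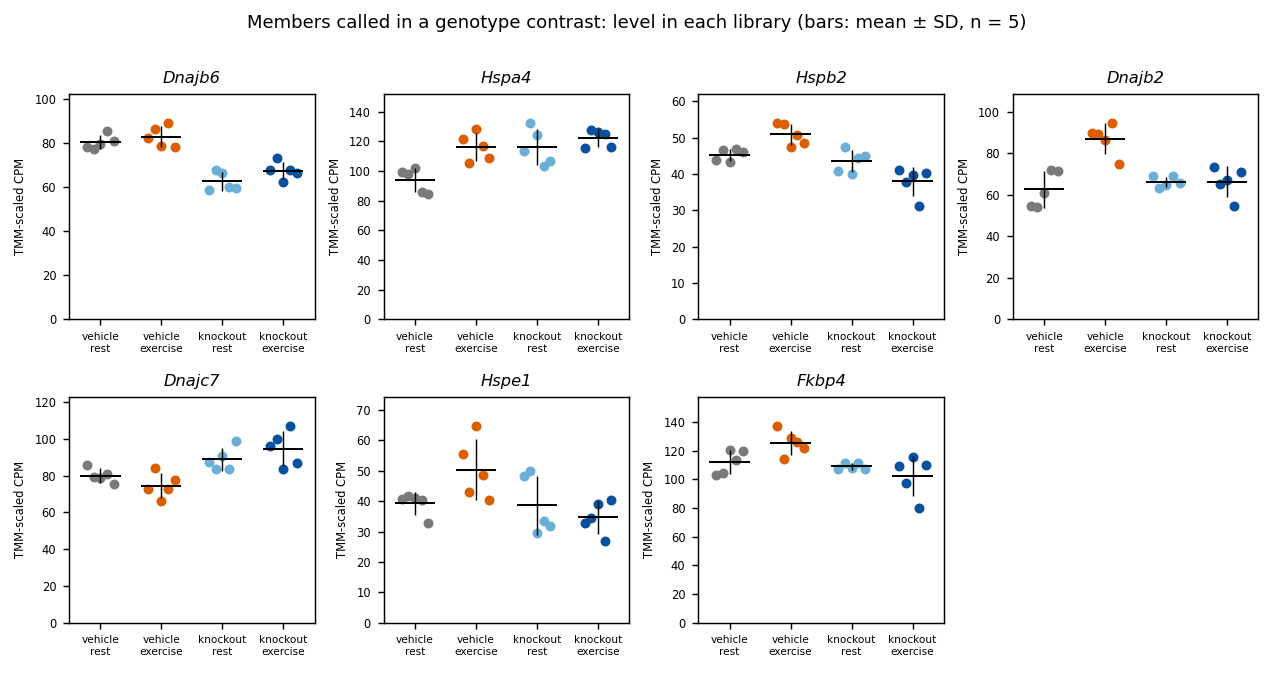
TMM-scaled CPM (axis from 0) of the 7 members called in a comparison of knockout-labelled with vehicle muscle, 1 point per library, with the group mean and SD (n = 5). All 10 knockout-labelled libraries of Dnajb6 lie between 58.9 and 73.2 CPM, below the 10 vehicle libraries at 77.6 to 89.2 CPM.

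The heat shock element matches can be set beside these calls. Of the 7 members called for exercise in vehicle that had a promoter window, 5 held at least 1 match to GAANNTTC or TTCNNGAA (Chordc1, Dnaja1, Hspa1a, Hspa1b and Hsph1), and Dnajb2 and Stip1 held none. Hspa1a and Hspa1b hold the same match in near-identical stretches, and Dnaja1 holds a match in 1 of its 3 windows. Among all genes with a window the share was 17%. Of the 61 members with a window that were not called, 16 held a match (26.2%), among them Bag3, Hspb1 and Hspe1. The run of 3 units was present in 2 of the 7 (Chordc1 and Hsph1) and 3 of the 61 (Dnajb6, Hspd1 and Hspe1). Of the 6 members called in a genotype comparison that had a window, 3 held a heat shock element match (50%) and 2 the run of 3 units (33.3%). Of these 6, 0 held CACGTG, against 8.09% of all genes, and 6 members are too few to compare with that share. Hsp90aa1 and Hspb2 are among the 15 members that were not matched to a window.

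Some members followed the slow-fibre content of the library. In a fit with group means and the slow-fibre score, an alternative chosen after seeing the data, 22 members had a called slope, 15 higher and 7 lower with the score; this is 26.5% of members, near the 23.1% of all genes (12.5% higher and 10.6% lower). Among the small heat shock proteins, Hspb7 (cvHsp) gained 0.34 log2 units per unit of score (SE 0.036, edgeR adjusted p 7.25e-06) and Hspb6 gained 0.17 (SE 0.027, adjusted p 0.000243). Hspb8, the partner of Bag3, had the opposite slope of -0.095 (SE 0.014, adjusted p 2.00e-05). Hspb7 stood at 389.7, 289.5, 259, 142 and 101 CPM in vehicle at rest and at 540.3, 77.1, 635, 111 and 699.8 CPM in knockout after exercise, lowest in the libraries with few slow-fibre transcripts. Of the J proteins, Dnaja4 (0.15) and Dnajb4 (0.13) rose with the score, as did Hspa4l (0.14) and Bag3 (0.074). Of the exons of Dnaja4, 44.1% overlap Wdr61 on the opposite strand. The points share their libraries and depth with the score. Of the members named for exercise, the slope was not called for Hspa1a (0.21, SE 0.081, edgeR adjusted p 0.0764) or Hspa1b (0.22, SE 0.10, adjusted p 0.137). It was also not called for Hsp90aa1 (0.095, SE 0.039, adjusted p 0.0946) or Dnaja1 (0.034, SE 0.024, adjusted p 0.354). Unadjusted edgeR p-values were 0.0209 for Hspa1a, 0.0470 for Hspa1b and 0.0283 for Hsp90aa1, so these slopes are imprecise and not shown to be flat.

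**Figure D5:**
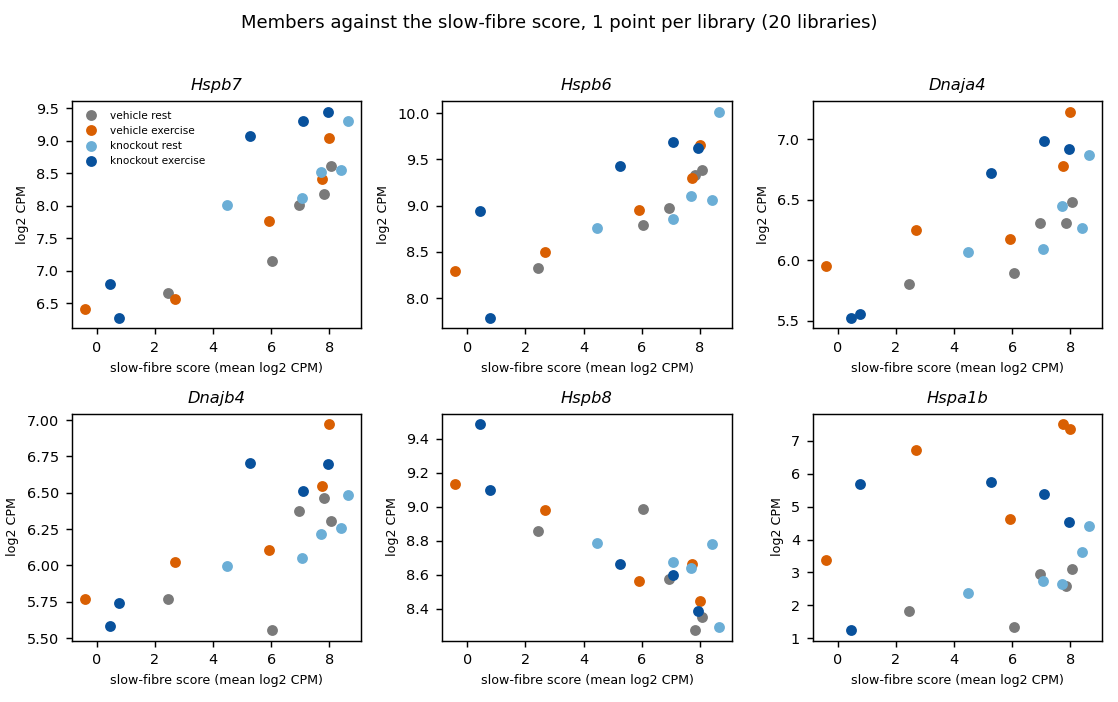
Log2 CPM against the slow-fibre score (mean log2 CPM of 7 markers), 1 point per library, 20 libraries, coloured by group, for 5 members with a called slope and for Hspa1b, whose slope was not called. Hspb7 climbs with the score by 0.34 log2 units per unit, and Hspb8 has the opposite slope of -0.095.

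Genes of the same pathways outside the naming rule were tested in the same fit. Of 38 tested genes for HSF1 regulation and further chaperone partners, 0 were called by edgeR for exercise in vehicle (0.804% of all genes were), 8 having an unadjusted p under 0.05 (21.1%, against 8.92%), all higher. After exercise, 6 of the 38 differed by the knockout label (15.8%, against 6.42%): Tomm34 and Sugt1, which are cochaperones of Hsp70 and Hsp90, were higher, and Ier5, Clu, Pfdn6 and Hspbp1 were lower. Ier5, an HSF1-linked immediate early gene, stood at 20.3 ± 4.11 CPM with vehicle and 8.11 ± 4.07 CPM with knockout after exercise (log2 fold change -1.30, adjusted p 0.00817), and Clu, the secreted chaperone clusterin, at 56.8 ± 12.7 and 31.8 ± 3.53 CPM (log2 fold change -0.84, adjusted p 0.00619). Of 21 unfolded protein response genes of the endoplasmic reticulum, 0 were called by edgeR for exercise in vehicle, while 7 had an unadjusted p under 0.05 (33.3%, 6 of them higher) and 19 had a log2 fold change above 0 (90.5%, against 50% of all genes). Between the labels, Herpud1 alone of the 21 was called (4.76%, near the 3.86% of all genes at rest and 6.42% after exercise), lower at rest (138 ± 4.76 against 77.8 ± 6.50 CPM) and after exercise. Of 12 mitochondrial quality control genes, Clpx alone was called (8.33%), at 57.9 ± 6.48 CPM with vehicle and 109.9 ± 13.3 CPM with knockout at rest, and higher after exercise as well.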

How the data were processed

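RNA of gastrocnemius was extracted with Trizol and a Qiagen kit and made into Illumina libraries, per the labels' protocols. The values are the read counts per gene that the authors deposited in 1 table of 53311 rows and 20 columns, none of them unassigned. The submitters' processing notes name Partek, STAR 2.7.8a and DESeq2, and the builds mm10 and GRCm39 without their roles; the counting program, annotation and strand setting are not given in the sources used here. Reads shared between near-identical genes may therefore be split or lost.

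Counts were tested with edgeR 4.0.16 in R 4.3.3 (limma 3.58.1): filterByExpr with a minimum count of 10, TMM scaling, a robust quasi-likelihood F test, 1 mean per group over all 20 libraries, 5 contrasts and Benjamini-Hochberg adjustment over 13560 genes, which held 99.83% of counts. Total counts had a median of 9024899.5 per library. Levels are TMM-scaled CPM; scores are means of log2 CPM with a prior count of 2. The tests were run on simulated data beforehand.

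Alternatives were RLE scaling, library size alone, DESeq2 1.42.0, other count filters, a non-robust dispersion, a replicate block, only the groups compared, and each library left out; the slow-fibre covariate and the summed Hspa1 pair were added after seeing the data. Lengths, exon overlaps and shared 50-base stretches came from the GENCODE annotation of GRCm38, and promoter windows from RefSeq on GRCm38.p6.

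The members and gene lists were chosen with earlier results of these data known. Genes were named where called; in a contrast with no call, the 5 smallest unadjusted p; and in each subfamily the highest and the smallest p for exercise in vehicle, with Hsf1 and Hsf2. Other uncalled members, such as Hspa4l, Dnajb1, Hspa13, Ahsa1, Ptges3, Hspa5, Hspa9 and Dnajc13, were chosen after their values were seen. Alternatives are reported for 60 pairs of a gene and a contrast, while DESeq2 and the slow-fibre covariate were read for all members. For exercise in vehicle the pairs cover every gene the rule names. For exercise in knockout and the interaction they cover the 5 smallest p and the members called for exercise in vehicle. For both genotype comparisons they cover the members called in either.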

Additional observations from a re-analysis of the deposited data

Results flagged for a closer look

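In 9 of 128 combinations of a named gene and a group of 5 libraries, 1 library stood apart from the rest: on the log2 CPM scale, its gap to the nearest library, as a share of the group's range, passed Dixon's 95% critical value of 0.71. Chance alone gives about 1 in 20. The values below are CPM. Knockout exercise 4 was apart on the low side for Hspa1a, at 7.15 CPM with the nearest library at 30.9, and for Hspa1b, at 2.16 CPM with the nearest at 22.9; its slow-fibre score was 0.452. Knockout rest 2 was apart on the high side for Hspb6, at 1035 CPM with the nearest at 548, and on the low side for Bag6, at 137.9 CPM with the nearest at 162.8. Vehicle rest 3 was the highest of its group for Cct8, at 99.3 CPM with the nearest at 93.2, and for Hspb1, at 140.3 CPM with the nearest at 124.6. Vehicle rest 5 was the lowest for Hspe1, at 32.8 CPM with the nearest at 40.5. Knockout rest 5 was the lowest for Chordc1, at 40.8 CPM with the nearest at 46.4. Vehicle exercise 4 was the highest for Hsp90ab1, at 1383 CPM with the nearest at 1207.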

How the results depend on the processing

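The 8 members called for exercise in vehicle became 5 with scaling by library size alone, 4 with the replicate block, 1 when only both vehicle groups were fitted, 11 with DESeq2 and 12 with the slow-fibre covariate, and from 1 to 9 when 1 library was left out. The 2 called at rest became 1 with library size alone and 4 with DESeq2, and from 1 to 3 when 1 library was left out. Hspa4 at rest also lost its call without a filter on low counts and when only both resting groups were fitted. The 6 called after exercise became 3 without a filter on low counts, 7 with DESeq2 and 7 with the slow-fibre covariate, both adding Hspa4l, and from 4 to 7 when 1 library was left out. The counts for exercise in knockout-labelled muscle and for the interaction were 0 in every alternative tried. Shares of all genes called under each alternative are not given here, so a changed count is not shown to be particular to the members. Of 16 called pairs of a gene and a contrast, 4 kept their call in every alternative: Dnaja1 for exercise in vehicle, Dnajb6 at rest, and Dnajb2 and Hspb2 after exercise. No called pair changed sign. Of 1239 alternative values, 24 had the opposite sign, all of uncalled pairs near 0. For exercise in vehicle, log2 fold changes without 1 library ran from -0.012 to 0.16 for Hsf2, from -0.11 to 0.0099 for Bag6, from -0.060 to 0.027 for Dnajb5, from -0.0045 to 0.070 for Dnajc19 and from -0.20 to 0.16 for Hspb6. With the slow-fibre covariate Dnajb5 had 0.032 and Dnajc19 -0.0058, and with the replicate block Hspb6 had -0.016. Dnajb2 for exercise in knockout had -0.0041 without the filter, -0.010 with the covariate and from -0.040 to 0.065 without 1 library. Hspe1 at rest ran from -0.15 to 0.058 without 1 library. The cause of these changes was not tested. Libraries of the same number in different groups shared only that number: 15 of 30 such pairs deviated together with a correlation over 0.1, and the range was -0.448 to 0.437. The median correlation was 0.089 for these pairs and -0.017 for pairs of different number. Whether the number marks a block was not tested. The replicate block ended the calls of Hspa1a (edgeR adjusted p 0.0512), Hsp90aa1 (0.0538), Stip1 (0.0646) and Hsph1 (0.0714) for exercise in vehicle and of Fkbp4 (0.0552) after exercise.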
